A study of Mus musculus with 6 samples.

Results

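The proteasome genes of the mouse heart were taken as every gene of the deposited table whose symbol has the root Psma, Psmb, Psmc, Psmd, Psme, Psmf or Psmg followed by a number, which gave 50 of 49585 genes. The proteasome is the barrel-shaped protease that destroys ubiquitin-tagged proteins. Its 20S core is a stack of rings of alpha and beta subunits, with the cutting sites inside on the beta subunits Psmb5, Psmb6 and Psmb7. A 19S cap, made of a base with a motor of ATPases and a lid, receives tagged proteins, strips off the ubiquitin and feeds them in, while the activators of the Psme family open the core without ATP. Interferon replaces the cutting subunits by Psmb8, Psmb9 and Psmb10, which form the immunoproteasome. In the heart the proteasome clears worn and misfolded contractile and other proteins.

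Heart RNA of male mice, 8 or 9 weeks old, was sequenced after removal of ribosomal RNA, in 3 libraries of lunar gravity mice (LG1 to LG3) and 3 libraries of ground control mice (GC1 to GC3). The lunar gravity mice lived at 0.167 g in a centrifuge on the International Space Station, and the ground control mice were kept at 1 g on the ground in matched housing. The labels name a strain, C57BL/6 J, for the ground controls alone, give no genotype or drug, and leave unsaid whether every library came from its own mouse, so the p-values measure the spread between these libraries. With no flight group at 1 g among the samples used here, lunar gravity and the other differences between station and ground housing cannot be told apart. The header of the deposited table places GC3 among the flight libraries, whereas its title calls it a ground control, which is how it was used here.

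Total counts ranged from 7095862 to 8271553 in lunar gravity libraries and from 6461213 to 7209653 in ground control libraries. Levels are counts scaled to a common library size (CPM) with TMM, a correction for library make-up, and a level that is compared between genes is also divided by the annotated exon length in kilobases. Every fold change has lunar gravity on top. Calls were made where the adjusted p was under 0.05 in edgeR's quasi-likelihood test (Benjamini-Hochberg over all 12258 genes tested). All 7 cardiomyocyte markers were expressed, with a summed level of 45320 to 49640 CPM in lunar gravity libraries and 54540 to 55960 CPM in ground control libraries. Of these 7, Pln rose, on exon reads of which 14.8% were placed uniquely, and both Myh6 and Ryr2 fell. The lower sum lay mostly in Myh6, which averaged 24910 CPM in lunar gravity hearts and 31830 CPM in ground control hearts. The others, Tnnt2, Tnni3, Actn2 and Mb, had log2 fold changes of 0.09, -0.02, -0.03 and -0.03 and were not called. In such bulk tissue fewer cells of a type and less RNA per cell cannot be told apart. The part of these marker changes in the proteasome values was not tested.

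Most proteasome genes stood at nearly equal levels in the hearts of both groups. Of the 50 genes, 47 had enough reads to be tested, and 1 of them was called, Psma7, an alpha subunit that was higher in lunar gravity hearts. That is 2.13% of the 47, against 3.77% of all genes called in either direction and 1.56% called higher. Psma8, the testis form of Psma7, Psmb11, the thymus form of the cutting subunit, and Psme2b, a copy of an activator gene, were not tested. Psmb11 had no count in any library, Psma8 was at 0.157 to 0.732 CPM, and none of the exon reads of Psme2b were placed uniquely.

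The summed level of all 50 genes was 3079 ± 68.6 CPM in lunar gravity hearts and 3080 ± 38.2 CPM in ground control hearts (SD, n = 3 each). The 3 lunar gravity sums, 3002, 3101 and 3134 CPM, overlapped the 3 ground control sums of 3112, 3037 and 3089 CPM. The median log2 fold change of the 47 genes was 0.04, with quartiles of -0.01 and 0.10, and that of all genes tested was 0.00, with quartiles of -0.12 and 0.11. The 95% interval of the fold change lay inside 1.25-fold either way for 32 of the 47 genes (68.1%), a limit chosen after seeing the data. The same held for 39.1% of all genes tested, whose median level was lower, at 21.1 CPM against 55.4 CPM for the proteasome genes. At an unadjusted p under 0.05 stood 8 of the 47 genes (17.02%), 4 higher and 4 lower, against 15.6% of all genes. The groups did not overlap for 10 of the 47 genes (21.3%), 7 higher and 3 lower, against 20.6% of all genes.

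**Figure D1:**
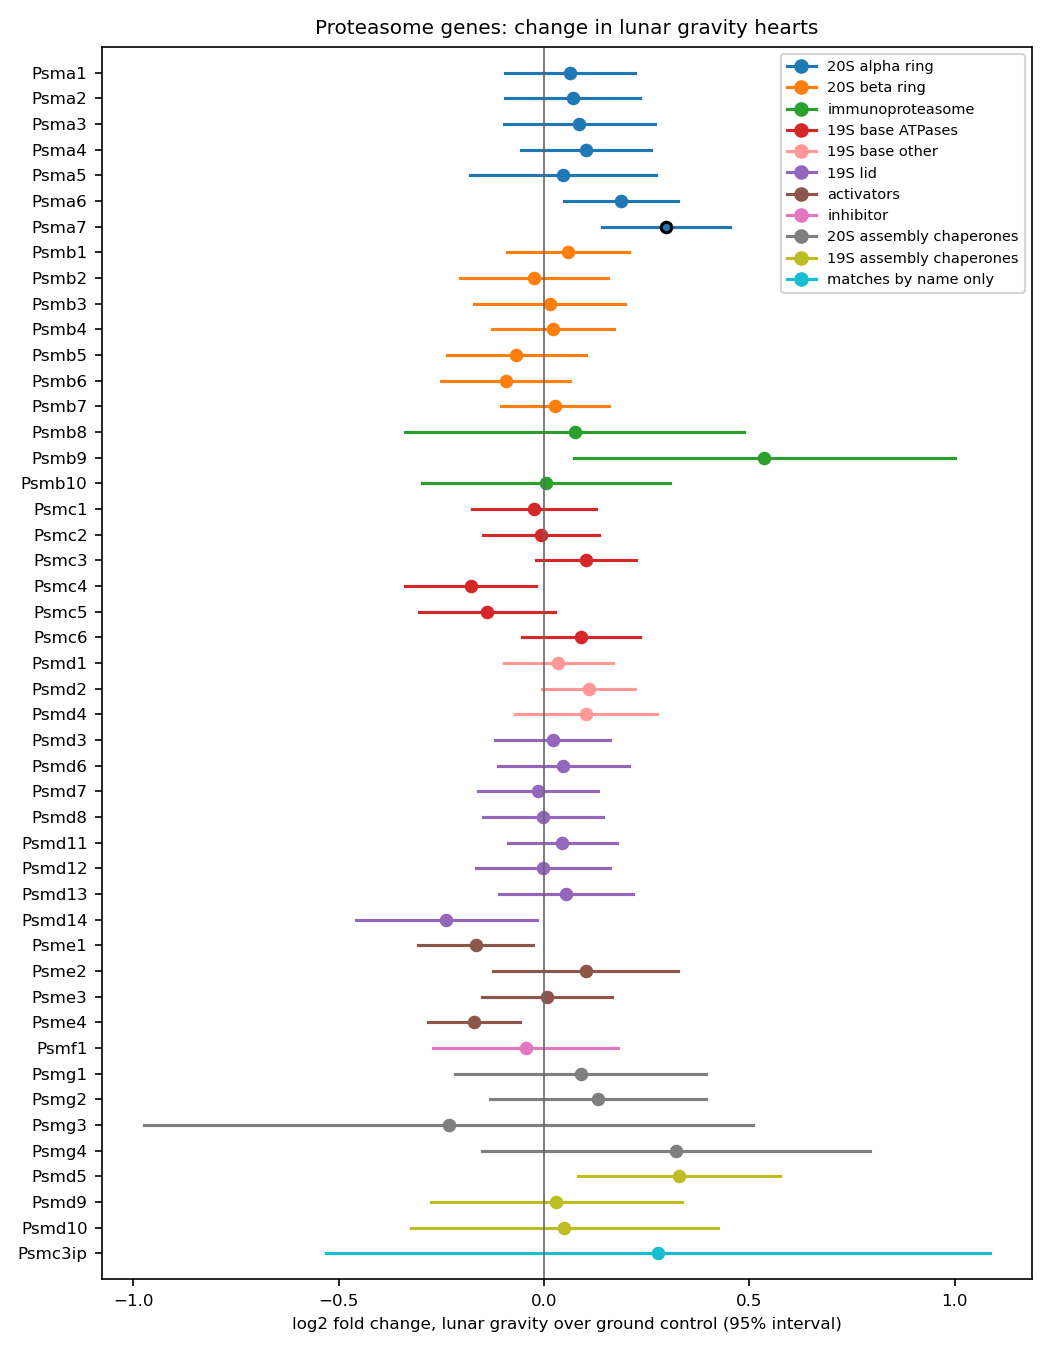
Log2 fold change of each of the 47 tested genes, lunar gravity over ground control (x axis), with its 95% interval, coloured by subgroup; the black ring marks the gene called changed. Psma7 is at 0.30 with its interval clear of 0, and most intervals of the alpha ring, beta ring, base and lid are short and cross 0, whereas those of the chaperones and the immunoproteasome are wider.

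The sequences just before the starts of a called alpha subunit, the alpha subunit with the next smallest p and a cutting subunit are shown, since the genes of a shared complex can share promoter elements. They are from RefSeq (GRCm38.p6), read 5′ to 3′ on the strand of the gene. Starts here are those of RefSeq, and for Psma7 and Psmb6 they lie outside the gene bounds of GENCODE. Capitals mark matches, on either strand, to 6 motifs: the antioxidant response element core TGACNNNGC, bound by Nrf-family factors such as the proteasome gene activator Nfe2l1, the NF-Y box CCAAT, the GC box GGGCGG, the interferon-stimulated element core GAAANNGAA, the gamma-activated site TTCNNNGAA and the TATA box TATAAA. Psma7 is shown only for chr2:180042465-180042508, on the minus strand, the 44 bases between its RefSeq start and the exons of its divergent neighbour Ss18l1. Psma6 is shown for chr12:55383972-55384221 and Psmb6 for chr11:70525107-70525356, 250 bases each, on the plus strand.
Psma7: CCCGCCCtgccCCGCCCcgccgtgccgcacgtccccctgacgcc
Psma6: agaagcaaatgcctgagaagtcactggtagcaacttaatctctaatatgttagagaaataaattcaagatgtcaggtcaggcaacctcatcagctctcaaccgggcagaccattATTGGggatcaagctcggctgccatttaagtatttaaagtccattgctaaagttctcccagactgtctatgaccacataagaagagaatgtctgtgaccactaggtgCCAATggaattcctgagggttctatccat
Psmb6: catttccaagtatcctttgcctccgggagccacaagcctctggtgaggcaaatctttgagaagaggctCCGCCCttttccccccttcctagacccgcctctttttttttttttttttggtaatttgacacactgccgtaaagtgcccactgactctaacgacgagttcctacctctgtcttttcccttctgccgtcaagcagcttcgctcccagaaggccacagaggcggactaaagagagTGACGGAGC

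The capitals of Psma7 are GC boxes on the opposite strand. Those that begin 43 and 33 bases before the start are shown whole, and of one that begins 47 bases before the start and overlaps the next, only the end is shown. Psma6 held NF-Y boxes 136 and 29 bases before the start shown, and Psmb6 held a GC box 182 bases and an antioxidant element core 9 bases before its start. RefSeq gives Psma6 another start, with a window at chr12:55398575-55398874, and the bases before that start held none of the motifs. Which start of Psma6 is used in these hearts was not tested. Within 250 bases of the start, a GC box was found in 22 of the 42 proteasome genes that have a RefSeq window (52.4%) and in 35.4% of 27025 genes. The antioxidant element core was found in 5 of the 42 genes (11.9%), Psmb5, Psmb6, Psmc6, Psmd9 and Psmd12, against 11.5% of all genes. The NF-Y box was in 15 (35.7%, against 37.5%), the interferon-stimulated core in 3 (7.14%, against 8.18%), the gamma-activated site in 2 (4.76%, against 8.13%) and the TATA box in 4 (9.52%, against 14.3%). Psma8, Psmb1, Psmb2, Psmb7, Psmc3, Psmd3, Psmd7 and Psmg2 are named without a window.

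Among the 7 subunits of the alpha ring, which form the outer gate of the core, 1 rose and none fell, and all 7 had log2 fold changes above 0, with a median of 0.09. Over all genes tested, 50.2% were above 0. The 7 were measured in the same libraries, so their shared sign is not independent evidence for each. Without LG3, Psma1 and Psma2 had log2 fold changes of -0.03 and -0.005. Psma5 was at -0.009 without LG2 and at -0.045 without GC1. Psma7 (ENSMUSG00000027566; chr2:180036374-180042433, minus strand, GRCm38) had 69.0, 63.6 and 69.6 CPM in LG1 to LG3, against 52.0, 58.7 and 53.9 CPM in GC1 to GC3. The lowest lunar gravity library was above the highest ground control library. Psma7 averaged 67.4 ± 3.29 CPM in lunar gravity hearts and 54.9 ± 3.44 CPM in ground control hearts (SD, n = 3 each), which was 1.23-fold with a 95% interval of 1.10 to 1.37. On the log2 scale the change was 0.30 ± 0.08 (SE), and the edgeR adjusted p was 0.0244. The call was kept by limma voom (adjusted p = 0.0365) and not by DESeq2 (adjusted p = 0.0507). Nor did it pass without LG1 (adjusted p = 0.0684), without LG3 (0.0728), without GC1 (0.120) or without GC3 (0.0745). The neighbour Ss18l1, which is read in the opposite direction from the other end of the 44 bases, averaged 6.61 ± 1.37 CPM in lunar gravity hearts and 7.90 ± 0.93 CPM in ground control hearts, with overlapping groups and an adjusted p of 0.585.

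Psma6, the next alpha subunit by p, had 85.4, 83.1 and 90.6 CPM in LG1 to LG3, against 73.0, 77.0 and 77.6 CPM in GC1 to GC3. These groups did not overlap either, but with a log2 fold change of 0.19 ± 0.07 (SE) it was not called (edgeR adjusted p = 0.145). The other 5, Psma1 to Psma5, had log2 fold changes of 0.05 (Psma5) to 0.10 (Psma4), and each had overlapping groups. The summed level of the ring was 412.8, 414.2 and 458.8 CPM in LG1 to LG3, against 379.3, 399.4 and 396.1 CPM in GC1 to GC3, with no overlap. Without Psma6 and Psma7 the sums were 258.4, 267.5 and 298.6 CPM in LG1 to LG3, against 254.4, 263.7 and 264.5 CPM in GC1 to GC3. Those sums overlapped, LG3 being the highest library and LG1 lying inside the ground control range. Only 16.8% of the exon reads of Psma3 and 42.3% of those of Psma5 were placed uniquely, so the values of both are uncertain.

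**Figure D2:**
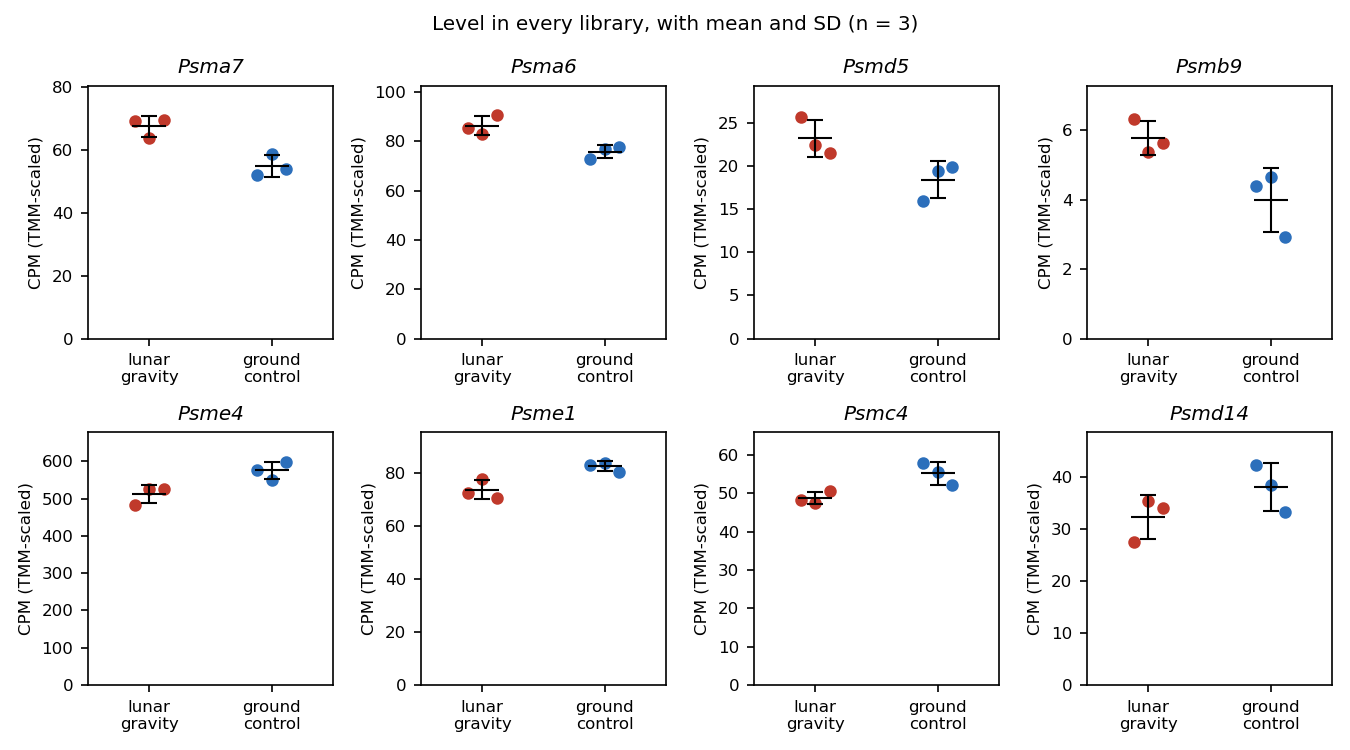
CPM (TMM-scaled, y axis from 0) in each library for the 8 genes with an unadjusted p under 0.05, lunar gravity left of ground control, with mean and SD (n = 3). The upper row holds genes with higher and the lower row genes with lower means in lunar gravity; of the 8, Psma7 alone was called, and only Psmd14 has overlapping groups.

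The beta ring, which carries the cutting sites, gave no call. None of its 7 constitutive subunits was called by edgeR, limma voom or DESeq2, and none had an unadjusted p under 0.05. All 7 intervals lay inside 1.25-fold, although Psmb3 (48.6% of exon reads unique) is uncertain. Psmb5, which carries the chymotrypsin-like site, had 44.0, 46.8 and 44.2 CPM in LG1 to LG3, against 49.5, 43.3 and 48.8 CPM in GC1 to GC3. Its log2 fold change was -0.07 ± 0.08 (SE). Psmb6, which carries the caspase-like site, averaged 67.9 ± 5.39 CPM in lunar gravity hearts and 72.3 ± 4.52 CPM in ground control hearts, and Psmb7, which carries the trypsin-like site, averaged 96.2 ± 2.17 CPM in lunar gravity hearts and 94.4 ± 3.92 CPM in ground control hearts (SD, n = 3 each). The structural subunit Psmb1 had a log2 fold change of 0.06, the largest of the ring, and Psmb6 the lowest at -0.09. The ring's sum was 445.3 ± 15.4 CPM in lunar gravity hearts and 446.6 ± 11.3 CPM in ground control hearts.

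The immunoproteasome subunits were scarce and none was called by edgeR, limma voom or DESeq2 without independent filtering, while 1, Psmb9, had an unadjusted p under 0.05. DESeq2 with its independent filtering gave none of the 3 an adjusted p. Psmb9, the replacement for Psmb6, had 6.33, 5.37 and 5.64 CPM in LG1 to LG3, against 4.38, 4.65 and 2.93 CPM in GC1 to GC3. Every lunar gravity library was above every ground control library, with GC3 far below GC1 and GC2. The end of Psmb9 overlaps the start of Tap1 on the other strand in gene bounds. Strandedness is not given, so whether reads of Tap1 entered the Psmb9 counts was not tested. The log2 fold change was 0.54 ± 0.22 (SE), or 1.45-fold with a 95% interval of 1.05 to 2.00, and the edgeR adjusted p was 0.236. It rested on counts of 20 to 51 per library. Over the alternatives the log2 fold change of Psmb9 ranged from 0.18, with GC3 grouped as in the deposited header, to 0.67, without GC2. Without GC3 it was 0.36 (edgeR adjusted p = 0.527). Psmb8, the replacement for Psmb5, averaged 6.53 ± 1.42 CPM in lunar gravity hearts and 6.25 ± 0.47 CPM in ground control hearts, with LG2 the lowest library and LG1 the highest. Psmb10, the replacement for Psmb7, averaged 11.2 ± 0.93 CPM in lunar gravity hearts and 11.1 ± 1.02 CPM in ground control hearts. The 95% intervals were 0.791 to 1.40-fold for Psmb8 and 0.814 to 1.24-fold for Psmb10, the second of which lies inside the 1.25-fold limit.

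Per kilobase of exon, Psmb9 stood at 0.0512, 0.0372 and 0.0434 of Psmb6 in LG1 to LG3, against 0.0309, 0.0310 and 0.0221 of Psmb6 in GC1 to GC3. These ratios did not overlap, but the groups of the numerator already did not, and no test was made of the ratio. Psmb8 stood at 0.0465 ± 0.0114 of Psmb5 in lunar gravity hearts and 0.0424 ± 0.00638 in ground control hearts. Psmb10 stood at 0.233 ± 0.0209 of Psmb7 in lunar gravity hearts and 0.236 ± 0.0121 in ground control hearts. Leukocytes are rich in immunoproteasome, so their markers are given beside these values: 6 of 9 were tested, none was called by edgeR, limma voom or DESeq2 without independent filtering, 1 (Cd68) was lower at an unadjusted p under 0.05, and all 6 log2 fold changes were below 0. Their summed level was 259.9 to 311.5 CPM in lunar gravity hearts and 284.0 to 315.2 CPM in ground control hearts. Of 14 genes of antigen processing and interferon signalling, none was called by edgeR, limma voom or DESeq2 without independent filtering and none had an unadjusted p under 0.05. Of the 14, 7 had log2 fold changes above 0 and 7 below, from -0.27 to 0.37. Irf1, an interferon-induced factor, had a log2 difference of 0.24 and an adjusted p of 0.350.

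The base of the 19S cap gave no call. None of its 6 ATPases, which unfold proteins and open the core, was called by edgeR, limma voom or DESeq2, and 1 had an unadjusted p under 0.05. Psmc4 had 48.3, 47.5 and 50.6 CPM in LG1 to LG3, against 58.1, 55.7 and 52.2 CPM in GC1 to GC3, all lunar gravity libraries being below all ground control libraries. Its log2 fold change was -0.18 ± 0.08 (SE; edgeR adjusted p = 0.253). Psmc3 averaged 142.7 ± 4.78 CPM in lunar gravity hearts and 133.0 ± 3.59 CPM in ground control hearts, and Psmc6 averaged 73.4 ± 1.35 CPM in lunar gravity hearts and 69.0 ± 3.25 CPM in ground control hearts. Both had all lunar gravity libraries above all ground control libraries, with adjusted p-values of 0.436 and 0.603. For Psmc5 the log2 difference was -0.14, with an adjusted p of 0.441, and Psmc1 and Psmc2 lay within 0.03 of 0. The summed ATPase level was 467.5 ± 8.11 CPM in lunar gravity hearts and 467.1 ± 14.04 CPM in ground control hearts.

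The other base subunits had log2 fold changes of 0.04 for the scaffold Psmd1, 0.11 for the scaffold Psmd2 and 0.10 for the ubiquitin receptor Psmd4. None of these 3 was called or had an unadjusted p under 0.05. Psmd2 had 217.0, 223.4 and 212.3 CPM in LG1 to LG3, against 207.1, 195.4 and 202.7 CPM in GC1 to GC3, without overlap (edgeR adjusted p = 0.348).

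Of the 8 lid subunits, which hold the cap together and remove ubiquitin, none was called by the 3 tools and 1 had an unadjusted p under 0.05. That was Psmd14, the enzyme of the lid that cuts ubiquitin off the protein about to be destroyed. Psmd14 had 27.4, 35.3 and 34.0 CPM in LG1 to LG3, against 42.3, 38.5 and 33.3 CPM in GC1 to GC3. LG2 and LG3 were above GC3, so the groups overlapped, and the log2 fold change of -0.24 ± 0.11 (SE) had an edgeR adjusted p of 0.276. The other 7, Psmd3, Psmd6, Psmd7, Psmd8, Psmd11, Psmd12 and Psmd13, had log2 fold changes of -0.02 to 0.05, and all 7 intervals lay inside 1.25-fold. Summed over the lid the level was 525.3 ± 17.96 CPM in lunar gravity hearts and 524.1 ± 5.44 CPM in ground control hearts.

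The activators had a lower summed level in every lunar gravity library, through Psme4 for the most part. Psme4 (chr11:30771726-30880361, plus strand) encodes PA200, which caps the core and, in testis, aids the breakdown of acetylated histones. It had 484.0, 525.1 and 526.1 CPM in LG1 to LG3, against 577.5, 551.4 and 598.4 CPM in GC1 to GC3, with no overlap. Its log2 fold change of -0.17 ± 0.05 (SE), or 0.889-fold, was not called (edgeR adjusted p = 0.0862), and its adjusted p over the alternatives ranged from 0.0547 to 0.797. Psme1, a subunit of the interferon-inducible ring PA28, had 72.3, 77.5 and 70.6 CPM in LG1 to LG3, against 83.0, 83.8 and 80.3 CPM in GC1 to GC3. Its groups did not overlap either, and the log2 fold change was -0.17 ± 0.07 (SE; adjusted p = 0.218).

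Psme2, the partner of Psme1 in the ring, averaged 28.4 ± 4.12 CPM in lunar gravity hearts and 26.6 ± 1.17 CPM in ground control hearts (SD, n = 3 each), with overlapping groups. Of its exon reads 46.1% were placed uniquely, so its level is uncertain. Which genes, its copy Psme2b among them, share the other reads was not tested. Psme3, which forms the nuclear ring PA28 gamma, averaged 59.3 ± 2.13 CPM in lunar gravity hearts and 59.1 ± 4.49 CPM in ground control hearts. Of the 4 activators tested none was called by the 3 tools, and 2 were lower at an unadjusted p under 0.05. The summed level of the activators was 643.0, 685.8 and 690.1 CPM in LG1 to LG3, against 749.4, 716.5 and 765.5 CPM in GC1 to GC3. Psmf1, which encodes the inhibitor PI31, averaged 21.4 ± 1.81 CPM in lunar gravity hearts and 22.2 ± 0.35 CPM in ground control hearts.

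**Figure D3:**
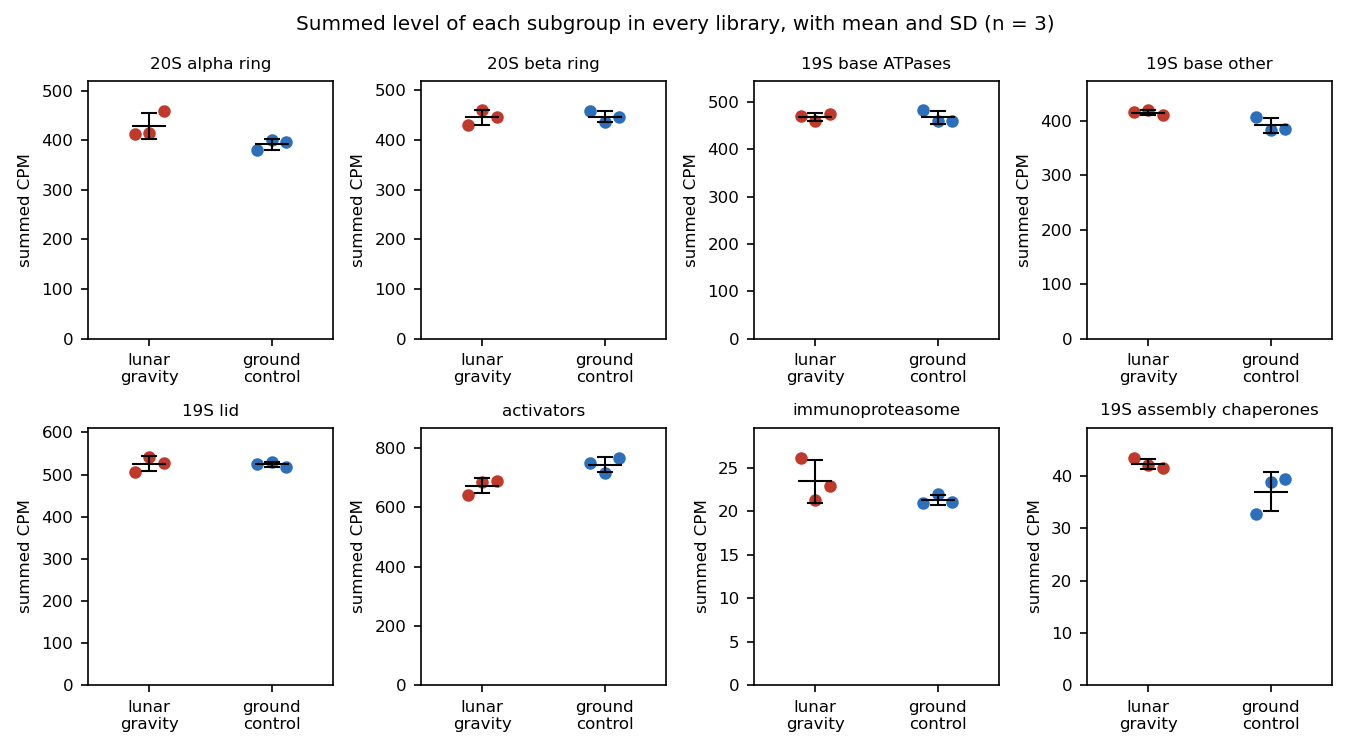
Summed CPM of 8 subgroups in each library (y axis from 0), lunar gravity left of ground control, with mean and SD (n = 3). The alpha ring, the non-ATPase base subunits and the 19S chaperones have all lunar gravity sums above all ground control sums, the activators have all below, and the beta ring, ATPases, lid and immunoproteasome overlap. Gene by gene, only Psmd2 of the non-ATPase base subunits and only Psmd5 of the 19S chaperones had groups that did not overlap.

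Assembly chaperones were expressed at low levels and none was called by edgeR, limma voom or DESeq2 without independent filtering. DESeq2 with its independent filtering gave none of the 7 an adjusted p. Psmd5, which holds base ATPases apart until the cap is built, had 25.7, 22.5 and 21.5 CPM in LG1 to LG3, against 15.97, 19.5 and 19.9 CPM in GC1 to GC3. The groups did not overlap, and the log2 fold change of 0.33 ± 0.12 (SE) had an unadjusted p of 0.0111 and an edgeR adjusted p of 0.148. The other base chaperones, Psmd9 and Psmd10, had log2 fold changes of 0.03 and 0.05 with overlapping groups. The core chaperones, which line up the alpha ring, had log2 fold changes of 0.09 for Psmg1, 0.13 for Psmg2, -0.23 for Psmg3 and 0.32 for Psmg4, all with overlapping groups and no unadjusted p under 0.05. Psmg3 was at only 1.32 to 3.29 CPM over the 6 libraries, and the intervals of all 7 chaperones reached past 1.25-fold. Psmc3ip, which matches by its name but encodes a factor of meiotic recombination, was at 1.60 ± 0.49 CPM in lunar gravity hearts and 1.34 ± 0.37 CPM in ground control hearts.

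Per kilobase of annotated exon, the subgroups differed far more from each other than between the groups of mice. The median over genes was 37.4 CPM per kilobase for the beta ring, 24.6 for the alpha ring, 42.1 for the ATPases, 19.1 for the lid, 8.23 for the core chaperones, 3.40 for the base chaperones and 2.33 for the immunoproteasome. The highest levels were those of Psmb1 (67.1 CPM per kilobase over all libraries), Psma6 (65.7), Psme4 (64.9), Psmb4 (60.4) and Psma2 (58.7). In lunar gravity hearts these 5 stood at 68.5 ± 2.40, 70.0 ± 3.11, 61.1 ± 2.87, 60.8 ± 3.47 and 60.0 ± 5.29 CPM per kilobase (SD, n = 3), so Psmb1 and Psma6 did not differ beyond their spread, nor did the other 3. In ground control hearts they stood at 65.8 ± 4.02, 61.5 ± 2.06, 68.7 ± 2.81, 60.0 ± 4.54 and 57.3 ± 1.61 CPM per kilobase. Psme4 thus stood with the most abundant core subunits in both groups, at 3.03 ± 0.0694 times Psme3 in lunar gravity hearts and 3.44 ± 0.207 times Psme3 in ground control hearts. Annotated exon length counts all exons of all transcripts, so genes with many rarely used exons are set too low.

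**Figure D4:**
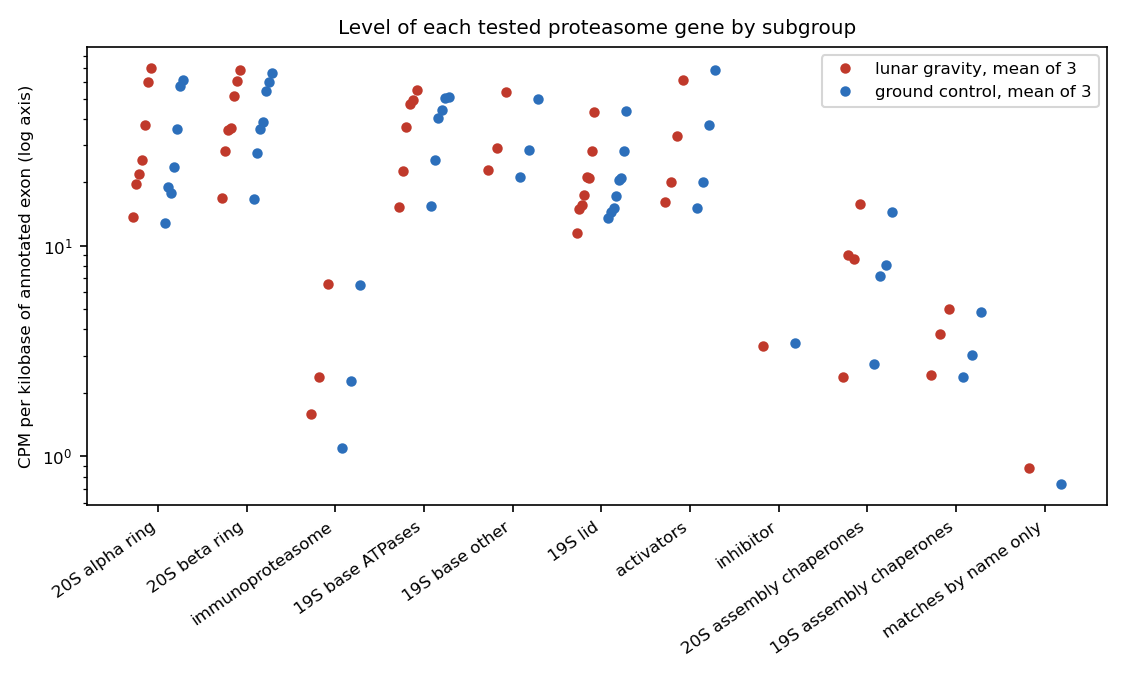
CPM per kilobase of annotated exon (log axis) for each tested gene, as the mean of 3 lunar gravity (left) and 3 ground control (right) libraries, by subgroup. Core, base, lid and activator genes lie above 10 CPM per kilobase, and the immunoproteasome, inhibitor and 19S chaperones lie below it.

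Intron reads, which come from unspliced RNA, gave a second reading of the same genes. Of 38 proteasome genes with enough intron reads none was called by edgeR, against 2.56% of 12776 genes, and 2 (5.26%) had an unadjusted p under 0.05, against 13.7% of all genes. Psma7, higher in exon counts, had 6.19, 6.02 and 5.22 intron CPM in LG1 to LG3, against 5.09, 5.86 and 6.503 intron CPM in GC1 to GC3. Those groups overlapped, with an intron log2 fold change of 0.00 ± 0.21 (SE). Psme4 had 266.1, 353.4 and 314.1 intron CPM in LG1 to LG3, against 307.4, 349.5 and 485.2 intron CPM in GC1 to GC3, GC3 standing above the rest (intron log2 fold change -0.29, adjusted p = 0.570). The 2 with an unadjusted p under 0.05 were Psme3, at an intron log2 fold change of -0.73 on 15 to 32 reads per library, and Psmd11, at 0.21, with adjusted p-values of 0.238 and 0.327.

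Of 28 genes that work with the proteasome, 1 was called higher and none lower, a share near the 3.77% of all genes called. Ubb, which encodes chains of ubiquitin, had 228.3, 233.0 and 202.8 CPM in LG1 to LG3, against 189.6, 187.1 and 193.5 CPM in GC1 to GC3. All lunar gravity libraries were above all ground control libraries (log2 fold change 0.22 ± 0.06 SE, edgeR adjusted p = 0.0380). DESeq2 with its independent filtering also called Ubb (adjusted p = 0.0499). The call was lost with limma voom (0.0638), DESeq2 without independent filtering (0.0891), the non-robust edgeR fit (0.0615) and unique exon reads (0.0509). Only 43.9% of the exon reads of Ubb were placed uniquely, so its value is uncertain. Leaving out any 1 library except LG3 took the call of Ubb away, with edgeR adjusted p-values of 0.0711 to 0.215. At an unadjusted p under 0.05, 6 of the 28 were higher and 1 was lower, against 15.6% of all genes in either direction. The lower gene was Nfe2l1, the activator that raises proteasome genes when the protease is short of capacity, with 570.6, 571.5 and 590.2 CPM in LG1 to LG3, against 620.1, 648.5 and 671.3 CPM in GC1 to GC3. Its groups did not overlap, but its log2 fold change of -0.16 ± 0.05 (SE) was not called (adjusted p = 0.0828). Another Nfe2l gene of the list, Nfe2l2, was among the 6 that were higher. It had overlapping groups and a log2 fold change of 0.21 ± 0.08 (SE), and was not called either (edgeR adjusted p = 0.193).

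In the authors' deposited table, which sets 2 ground libraries against 4 columns that include GC3, no proteasome gene had an adjusted p under 0.05, and the smallest was 0.785. When GC3 was moved to the flight side in the same way, edgeR called no proteasome gene and 32 genes in all, and Psma7 had a log2 fold change of 0.21 and an adjusted p of 0.527.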

How the data were processed

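Heart RNA of 6 libraries was analysed from the 1 table that the authors deposited. Per the file headers, its columns give each library exon and intron read counts, RPKM and an expression value, besides the authors' p-value and signed fold change (a score). The expression value, a whole-number read count as deposited, was what was tested. The deposited RPKM values were not used for levels. Over all genes tested, their median log2 ratio of lunar gravity over ground control was 0.12, for a reason that was not tested. Per the submitters' processing notes the build was GRCm38 (mm10). Aligner, counter, annotation and strandedness are not given in the sources used, so overlapping antisense genes are uncertain.

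Counts were filtered with filterByExpr (minimum count 10), scaled by TMM and tested in edgeR 4.0.16 (robust quasi-likelihood fit, R 4.3.3), with Benjamini-Hochberg adjustment. Intron reads were tested the same way with their own scaling. DESeq2 1.42.0, limma voom (limma 3.58.1), other scalings, filters and read columns, and leaving out each library were alternatives. The procedure was run on simulated counts in which every planted change was larger than that of Psma7. That run cannot tell how often smaller changes would be called. Total counts of 6461213 to 8271553 limit the precision of low genes, and the biological coefficient of variation was 6.20%. Replicates differed by more than counting noise (chi-square per gene 2.14 to 5.73). Coordinates came from GENCODE M21 by Ensembl identifier, and promoter windows from RefSeq.

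The genes and lists were chosen with earlier results of these data known. Named were the called genes, up to 4 genes of smallest p per subgroup, all activators and immunoproteasome subunits and their constitutive partners, and, of the outside lists, called genes or the 2 of smallest p. Ss18l1, Nfe2l1, Nfe2l2 and Cd68 were added after their values were seen. A gene that this rule would name is not reported here. Markers of endothelium, fibroblasts, smooth muscle, red cells, skeletal muscle and fat were also read: of 5, 5, 3, 5, 1 and 1 tested, only the fibroblast gene Col1a1 and the smooth muscle gene Acta2 were called, both lower.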

Additional observations from a re-analysis of the deposited data

How the results depend on the processing

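Psma7 was the 1 proteasome gene called under RLE, upper quartile and library total scaling, both other filters, limma voom, the non-robust fit and both other exon read columns, and the count was 0 with DESeq2, 0 with DESeq2 without independent filtering, and 0 with GC3 grouped as in the deposited header. Leaving out 1 library gave 0 to 1. The log2 fold change of Psma7 ranged from 0.21 to 0.35 and its adjusted p from 0.00559 to 0.527. In 889 refits of single genes, 7 lost a call, all of Psma7, and 63 changed sign in values called in neither fit. Genes called in all numbered 462, against 765 with no filter, 307 with DESeq2, 286 with DESeq2 without independent filtering and 32 with the header's grouping, and 219 to 463 with 1 library left out. On intron reads 327 genes were called, against 735 with no filter and 134 to 506 with 1 library left out, and 0 proteasome genes under every setting run on introns. The replicate numbers did not pair the libraries (correlations of same-numbered libraries 0.00, -0.05 and 0.05); with the replicate block the counts were 1 proteasome gene, 545 genes, and 354 genes on introns. The cause of these shifts was not tested. DESeq2 gave an adjusted p to 35 of the 47 genes. Low counts limit the chaperones and the immunoproteasome, whose intervals reach past 1.25-fold for 9 of 10 genes.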
